A study of Caenorhabditis elegans with 12 samples.

Results

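Eggs of the triple mutant daf-16;daf-2;bcl-11 were compared with eggs labelled daf-2;bcl-11, using 8 of the 12 libraries of the study, 4 for each genotype. The members are the 8 libraries that the labels assign to these genotypes, and no measured value was used to choose them. All 12 libraries came from animals with daf-2(e1370), an allele that lowers the function of the insulin/IGF receptor. Both genotypes compared also carried bcl-11(bon125), a hypomorphic frameshift allele made by genome editing. The triple mutant additionally carried daf-16(mu86), a deletion in the gene of the FOXO transcription factor. The 4 remaining libraries, from daf-2(e1370) eggs, entered the model for the estimate of spread and are otherwise given as levels only. Parents were grown at 20°C on OP50-1 bacteria, and after bleaching the eggs were kept at 27°C for 2 h. Each library was made from 5 ng of total RNA. Eggs from bleached adults include embryos of different stages.

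The insulin/IGF receptor DAF-2 signals through phosphatidylinositol 3-kinase and AKT kinases, which keep DAF-16 out of the nucleus. When receptor signaling is low, DAF-16 enters the nucleus and regulates genes of stress resistance, metabolism and longevity. BCL-11 is the nematode member of the BCL11 family, zinc finger proteins that act with chromatin remodeling complexes in mammals. An early embryo begins with RNAs loaded by the mother, then transcribes short-lived zygotic genes that set up cell lineages, and only afterwards switches on genes of muscle, epidermis, intestine and neurons. In a bulk sample, fewer cells of a type and less RNA per cell cannot be told apart. The same holds for more early embryos in a preparation and more early RNA in each embryo.

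Expression was given as regularized-log (rlog) values for 25122 genes. They are log2-scaled normalized counts, so a difference of 1 is 2-fold. The transformation shrinks weakly expressed genes towards their average, which understates their fold changes. The depth of the libraries is unknown. A gene was called when its adjusted p-value in limma (Benjamini-Hochberg over all 25122 genes) was below 0.05 and the change exceeded 1.5-fold. The labels do not say whether the replicates were separate cultures, so the p-values measure the spread between these libraries.

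The mutated genes were looked at before the rest. Transcripts of daf-16 were at 9.51, 9.61, 9.50 and 9.46 in the daf-2;bcl-11-labelled libraries and at 9.65, 9.77, 9.90 and 9.58 in the triple mutant. In daf-2 eggs it was at 12.14, 12.32, 12.03 and 11.98. Both bcl-11 genotypes therefore lay far below daf-2 in every library, and overlapped with each other. Between them daf-16 differed by 0.20 on the log2 scale (standard error 0.13, adjusted p = 0.793, limma, and two-sided exact permutation test, p = 0.0571). Without replicate 4 the triple mutant libraries lay above all daf-2;bcl-11-labelled ones, by 0.25 (adjusted p = 0.35, limma). The exact permutation test then gave p = 0.0286, its smallest possible value. A daf-2;bcl-11 strain has an intact daf-16 by its genotype, so this gene goes against the label, and every direction below rests on the label as given. 2 classical DAF-16 targets can be set beside it. mtl-1, a metallothionein, was at 6.77 to 7.19 in the daf-2;bcl-11-labelled libraries, at 6.65 to 7.33 in the triple mutant and at 10.28 to 12.22 in daf-2. sod-3, a mitochondrial superoxide dismutase, was at 5.15 to 5.30, 3.83 to 5.18 and 7.74 to 8.68 in the same order. Neither gene was called between the bcl-11 genotypes. Both were picked with their values known. Over 40 DAF-16 target genes the daf-2 libraries lay above the daf-2;bcl-11-labelled ones by medians of 0.45 to 0.64. Over 27 genes lowered by active DAF-16 they lay above them by 0.47 to 0.72. The median rlog value over all genes was also higher in daf-2, at 6.36 to 6.50 against 5.92 to 6.01 in the daf-2;bcl-11-labelled libraries. These list differences can therefore not be read as specific to DAF-16 genes. Another target, pck-1, described below, was called lower in the triple mutant without replicate 4 (log2 fold change -1.44). bcl-11 was at 9.01 to 9.42 in the daf-2;bcl-11-labelled libraries and at 8.05 to 9.70 in the triple mutant, and daf-2 was at 9.85 to 10.04 and 9.94 to 10.25. Other annotated genes overlap daf-16 and bcl-11 on the opposite strand, and the library protocol does not keep the strand.

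Replicate 4 of the triple mutant stood apart from the other 3 libraries of its genotype. Its Spearman correlation over all genes was 0.9928 to 0.9947 with replicates 1 to 3, but 0.9971 to 0.9979 with the 4 daf-2;bcl-11-labelled libraries. Replicates 1 to 3 correlated at 0.9959 to 0.9971 with each other, and the daf-2;bcl-11-labelled libraries at 0.9978 to 0.9988. On the first principal component of the 8 libraries, which held 46.4% of the variance, replicates 1 to 3 were at 0.273 to 0.499, the daf-2;bcl-11-labelled libraries at -0.382 to -0.104 and replicate 4 at -0.499. The median rlog value of a library was 5.92 to 6.01 in the daf-2;bcl-11-labelled libraries and 5.77 to 5.95 in the triple mutant, with replicate 4 at 5.94. The counts of called genes over all genes are given with and without replicate 4, while for many genes and some lists a single fit is given. The library to leave out was chosen with these values known, so p-values without it are a description of the 7 remaining libraries.

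With all 8 libraries, klp-4 was 12.12-fold lower in the triple mutant, and saeg-2 and the noncoding RNA F56E3.5 were 2.50-fold and 2.96-fold higher. These 3 genes were the only ones called in this fit, 0.0119% of the 25122 tested (0.00796% higher and 0.00398% lower). Before adjustment 1514 genes had a limma p below 0.05 (6.03%), 625 of them higher (2.49%) and 889 lower (3.54%). Without replicate 4, 357 genes were called (1.42%), 38 higher (0.151%) and 319 lower (1.27%), and the 3 genes were among them.

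klp-4 encodes a kinesin-3 motor that carries cargo along axons in the worm (chromosome X of WBcel235, 3171420 to 3178701). It was at 12.26, 12.44, 12.56 and 12.50 in the daf-2;bcl-11-labelled libraries and at 8.50, 9.41, 8.71 and 8.74 in the triple mutant. The groups were far apart, with replicate 4 among the other 3. In daf-2 eggs klp-4 was at 8.96 to 9.48, close to the triple mutant, so the daf-2;bcl-11-labelled libraries were the ones that differed from the rest. The log2 fold change was -3.60 (standard error 0.19, adjusted p = 4.64e-07, limma) with replicate 4 and -3.57 (standard error 0.21, adjusted p = 4.62e-06, limma) without it. Of 26 kinesin genes measured, klp-4 was the only one called with all libraries. Without replicate 4 klc-1, a kinesin light chain gene, was called as well (log2 fold change -1.41).

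F56E3.5 is annotated as a noncoding RNA on the same strand as klp-4, upstream of it and separated from it by 941 bp (chromosome X, 3179642 to 3179851). It was at 4.06, 3.97, 4.00 and 4.04 in the daf-2;bcl-11-labelled libraries and at 5.24, 5.83, 5.66 and 5.61 in the triple mutant. It moved against klp-4 in all 4 triple mutant libraries, and again the daf-2 eggs, at 5.30 to 5.96, resembled the triple mutant. The log2 fold change was 1.56 with and without replicate 4 (adjusted p = 0.00622 and 0.00721, limma). With all libraries this call was lost when replicate 2 or replicate 3 of the daf-2;bcl-11-labelled libraries was left out, while its log2 fold change ran from 1.48 to 1.72 over all settings tried. Within 25000 bp on either side of klp-4, 16 other genes were measured. In 3 of them the 8 libraries did not overlap between genotypes, all higher in the triple mutant, as was the case for 3.13% of all genes. These were F56E3.5, pfut-1 and gcc-1, a window chosen after the values were seen. pfut-1 encodes a protein O-fucosyltransferase and lies 3841 bp from klp-4. It was at 10.75, 10.91, 11.18 and 10.89 in the daf-2;bcl-11-labelled libraries and at 11.57, 11.73, 11.87 and 11.52 in the triple mutant. Its log2 fold change was 0.74 with all libraries (adjusted p = 0.192, limma) and 0.79 without replicate 4 (adjusted p = 0.0169, limma).

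saeg-2 encodes a nuclear protein found as a suppressor of an activated EGL-4, the cGMP-dependent protein kinase (chromosome III, 9240363 to 9242514). It was at 9.49, 9.48, 9.57 and 9.34 in the daf-2;bcl-11-labelled libraries and at 10.77, 10.82, 10.99 and 10.59 in the triple mutant. All triple mutant libraries lay above all others of the comparison, and the daf-2 eggs, at 10.69 to 11.03, lay with them. The log2 fold change was 1.32 (standard error 0.13, adjusted p = 0.000908, limma) and 1.39 without replicate 4 (adjusted p = 0.00035, limma). 2 other annotated genes overlap saeg-2 on the opposite strand. Of 24 genes on a list of EGL-4 and histone deacetylase complex members, saeg-2 was the only one called in either fit.

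The study also named hecw-1, AC8.10 and F55C5.13, so the 6 genes are not independent of these libraries. The paper describes all 6 as returned by daf-16 loss to the levels of daf-2 mutants, which was not tested here. hecw-1, for a HECT-domain ubiquitin ligase, was at 9.84, 9.78, 9.70 and 9.69 in the daf-2;bcl-11-labelled libraries and at 8.83, 9.11, 8.59 and 8.53 in the triple mutant. The groups did not overlap, and replicate 4 was the lowest library. In daf-2 eggs hecw-1 was at 9.27 to 9.77, above every triple mutant library and overlapping the daf-2;bcl-11-labelled ones. Its log2 fold change was -0.99 with all libraries (adjusted p = 0.177, limma) and -0.91 without replicate 4 (adjusted p = 0.0224, limma). AC8.10 was at 6.22 to 6.59 against 7.06 to 7.72, with log2 fold changes of 0.99 (adjusted p = 0.392, limma) and 1.11 (adjusted p = 0.0199, limma). F55C5.13 was at 3.41 to 3.50 against 3.79 to 3.95, without overlap, and was called in neither fit (log2 fold change 0.41 with all libraries, adjusted p = 0.787, limma). In daf-2 eggs AC8.10 was at 7.06 to 7.61 and F55C5.13 at 3.97 to 4.00, both nearer the triple mutant.

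**Figure D1:**
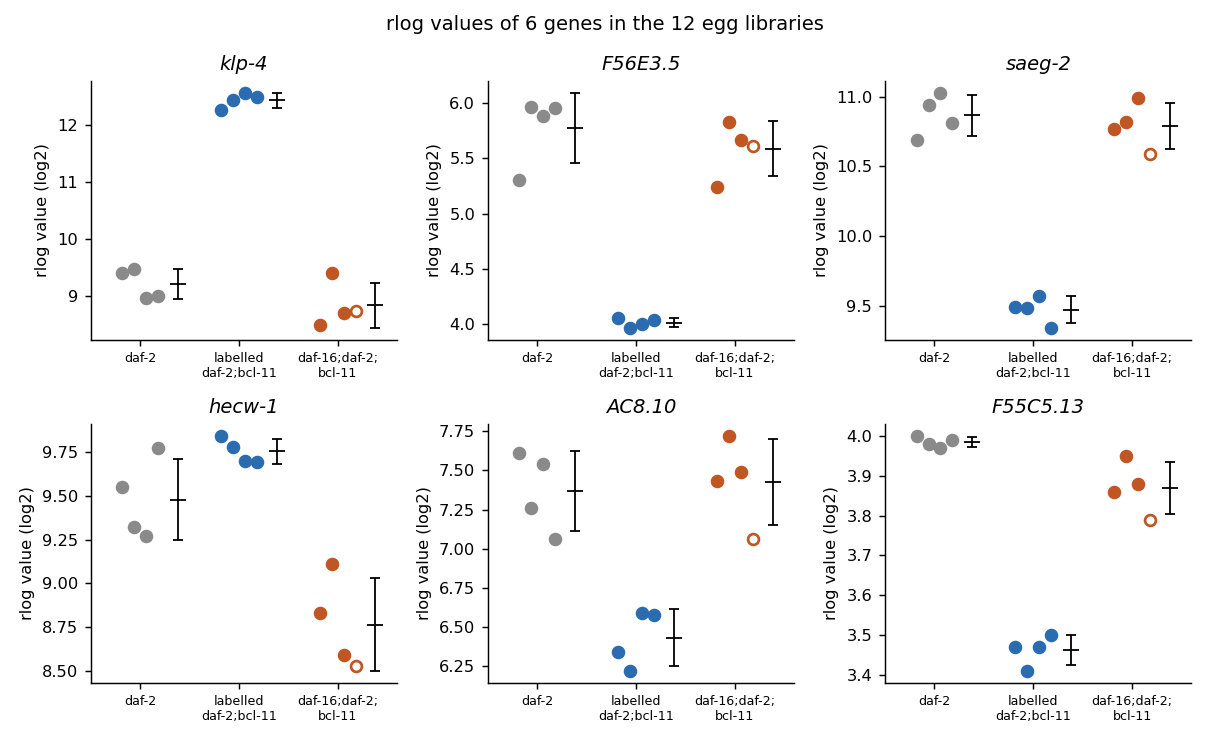
rlog values (log2 scale) of klp-4, F56E3.5, saeg-2, hecw-1, AC8.10 and F55C5.13 in the 4 daf-2 libraries (grey), the 4 daf-2;bcl-11-labelled libraries (blue) and the 4 triple mutant libraries (orange, replicate 4 as an open circle), with the mean and SD of each group beside the points. In all 6 genes replicate 4 lies with the other triple mutant libraries and apart from those labelled daf-2;bcl-11, for klp-4 at 8.74 against 12.26 or more.

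Genes in which all 8 libraries were apart were counted to see what did not depend on replicate 4. The 4 libraries of one genotype lay beyond the 4 of the other for 1085 genes (4.32%), 786 of them higher in the triple mutant (3.13%) and 299 lower (1.19%). For a gene without a difference, such a separation in either direction has a probability of 0.0286 over the 70 arrangements (exact permutation). The share lower was not above what this gives for 1 direction, so single genes may be apart by chance. A change over 1.5-fold in addition was found for 100 genes (0.398%), 29 higher (0.115%) and 71 lower (0.283%), and of these 7 and 16 were called without replicate 4. alkb-8, for an AlkB-family protein that modifies tRNA, was at 11.62 to 11.72 in the daf-2;bcl-11-labelled libraries and at 12.39, 12.77, 12.36 and 12.31 in the triple mutant (log2 fold change 0.79). egl-6, a neuropeptide receptor gene that inhibits egg laying in adults, was at 8.09 to 8.32 against 7.39, 7.18, 6.95 and 7.80 (log2 fold change -0.84). Both had adjusted p-values above the threshold with all libraries (0.303 and 0.787, limma) and below it without replicate 4 (0.0231 and 0.0199, limma). Further genes of this kind were sox-2, a SOX transcription factor gene (0.61), Y55F3AM.11 (-1.21), Y49E10.16 (-1.46) and the F-box gene fbxb-5 (-1.77), the values being log2 fold changes with all libraries. None of them was called in that fit (adjusted p = 0.787, 0.21, 0.303 and 0.72 in that order, limma). Apart from the 6 genes of the study, these examples were chosen after their values were seen.

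Most of the 319 genes called lower without replicate 4 lay within or above the range of the other genotype in that library. In 183 of them replicate 4 lay above all 4 daf-2;bcl-11-labelled libraries, in 17 below them, and in the others within their range. Their median log2 fold change was -1.25 in replicates 1 to 3, while replicate 4 differed from the mean of the daf-2;bcl-11-labelled libraries by a median of 0.42. Of the 38 genes called higher, replicate 4 lay above those libraries in 9, within their range in 19 and below them in 10. In 285 of the 319 genes the daf-2 eggs were also below the daf-2;bcl-11-labelled libraries, by a median difference of -1.11 over the 319 genes. That comparison shares the daf-2;bcl-11-labelled libraries with the fold change and is given as a level only. By chromosome the share called lower was 1.63% on I, 1.64% on II, 1.47% on III, 1.37% on IV, 1.12% on V and 0.539% on X. Of the 319 genes, 297 were protein-coding.

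**Figure D2:**
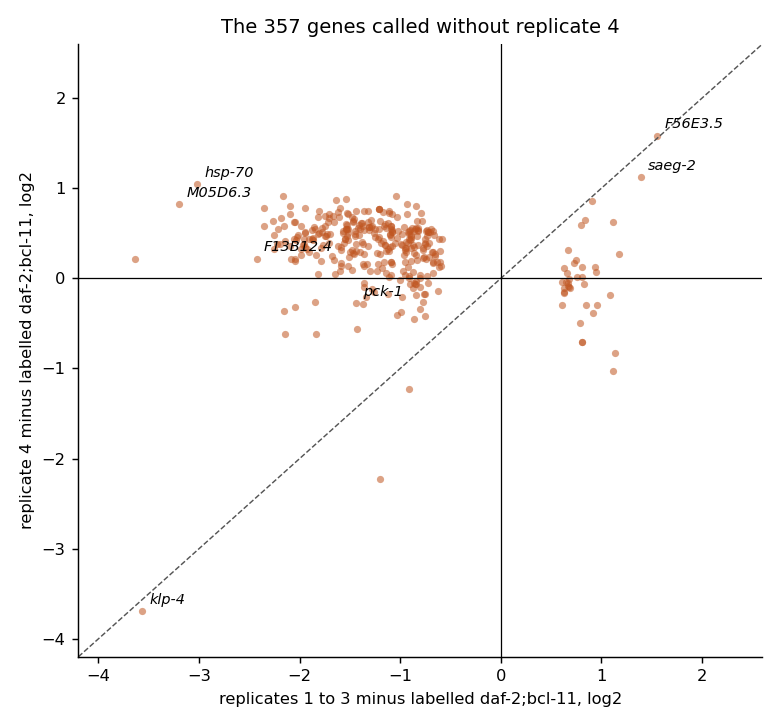
Each point is 1 of the 357 genes called without replicate 4 of the triple mutant. The horizontal axis gives the log2 difference of replicates 1 to 3 from the mean of the daf-2;bcl-11-labelled libraries and the vertical axis that of replicate 4, with equality as the dashed line. klp-4, saeg-2 and F56E3.5 lie near the line, whereas most of the 319 genes to the left of 0, hsp-70 and M05D6.3 among them, lie above 0 in replicate 4.

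The count without replicate 4 was itself sensitive to single libraries. When 1 more library was left out it was 17, 20, 45 and 64 without replicate 1, 2, 3 and 4 of the daf-2;bcl-11-labelled libraries, and 496, 27 and 85 without replicate 1, 2 and 3 of the triple mutant. Centring each library on its median gave 465 genes, with 36.8% of them higher in place of 10.6%, and moved the median change of all genes by 0.13. 15 genes were called in all 7 of these fits and under all 6 other models or scalings tried, fold thresholds aside. They were klp-4, saeg-2, F56E3.5, Y55F3AM.11, hsp-70, M05D6.3, F13B12.4, C35D6.4, clec-118, glb-1, pck-1, T07C4.3, hex-5, DH11.2 and imp-1. In the first 4 of these replicate 4 lay on the side of the other triple mutant libraries without overlap, in the other 11 it did not. Antisense genes overlap F13B12.4, M05D6.3 and T07C4.3.

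**Figure D3:**
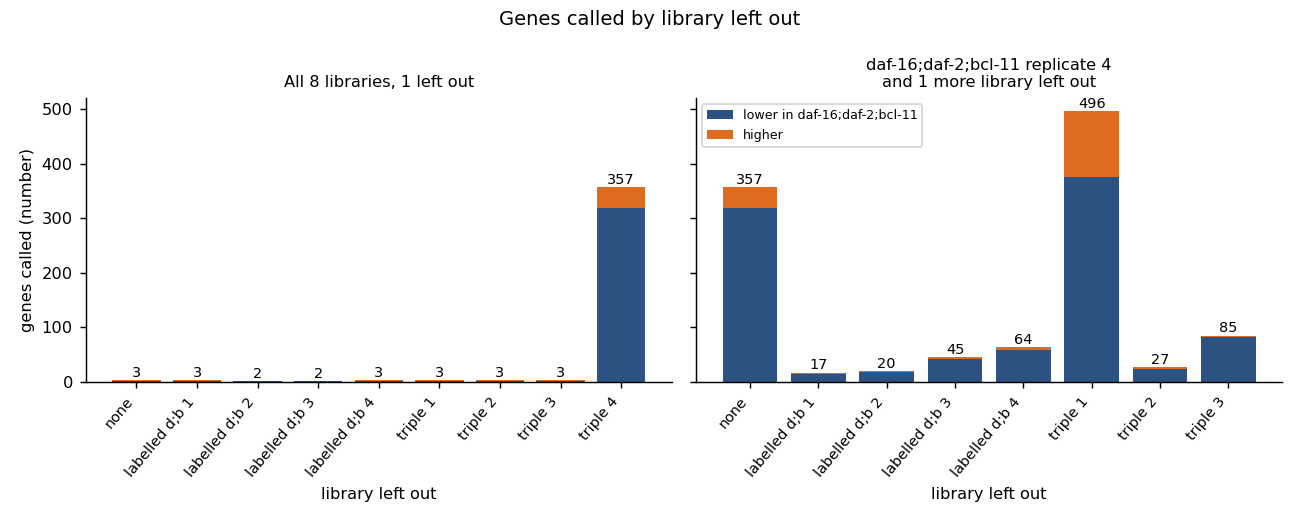
Number of genes called (vertical axis) by the library left out (horizontal axis), starting from all 8 libraries (left) and from the 7 libraries without replicate 4 of the triple mutant (right); blue is the part lower in the triple mutant, orange the part higher, "triple" stands for the triple mutant and "labelled d;b" for the daf-2;bcl-11-labelled libraries. Only leaving out replicate 4 took the left count from 3 to 357, and on the right the counts spread from 17 to 496.

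F13B12.4 separated replicates 1 to 3 from all 9 other libraries of the study. It was at 8.59, 8.21 and 8.35 in these 3 libraries and at 11.03 in replicate 4. The daf-2;bcl-11-labelled libraries held it at 11.06, 10.67, 10.66 and 10.86, and daf-2 eggs at 10.45 to 11.13. Its log2 fold change was -2.43 without replicate 4 (standard error 0.18, adjusted p = 4.5e-05, limma) and -1.77 with it (adjusted p = 0.787, limma). pck-1, for the gluconeogenic enzyme phosphoenolpyruvate carboxykinase, was at 12.99, 12.44, 12.89 and 12.76 in the daf-2;bcl-11-labelled libraries and at 11.15, 11.16, 11.68 and 12.49 in the triple mutant. Replicate 4 reached the range of the other genotype, and daf-2 eggs were higher still at 13.24 to 13.81. pck-1 was the only called member of 40 measured DAF-16 target genes (log2 fold change -1.44 without replicate 4, adjusted p = 0.00394, limma), whose median change was -0.02 with all libraries and -0.06 without replicate 4. None of the 27 genes on a list of those lowered by active DAF-16 was called in either fit. On the insulin/IGF pathway list of 34 genes, akt-1, a kinase that phosphorylates DAF-16, was called lower without replicate 4 (log2 fold change -0.70, adjusted p = 0.0222, limma).

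glb-1, for a globin, was at 11.25 to 11.83 in the daf-2;bcl-11-labelled libraries and at 10.11, 9.77, 10.06 and 11.73 in the triple mutant. hex-5, for a hexosaminidase, was at 10.45 to 10.82 against 9.60, 9.47, 9.28 and 10.98, and imp-1, for an intramembrane aspartyl protease, at 14.53 to 14.86 against 13.94, 13.82, 13.74 and 15.19. In all 3 genes replicates 1 to 3 lay below the other genotype and replicate 4 within or above it. Their log2 fold changes without replicate 4 were -1.51, -1.16 and -0.83 (adjusted p = 0.00049, 0.00721 and 0.00721, limma).

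Gene groups were then compared by library. Without replicate 4, zygotic genes of early embryos, maternal RNAs, germline genes and histone genes were shifted down, no list of a differentiated tissue had more than 2 called members, and ribosomal protein and mitochondrial mRNAs had medians above 0. The median change of all genes was 0.00 with all libraries, and no gene on the lists below was called in that fit except klp-4 and saeg-2. The lists and the replicate left out were chosen with earlier results of these data known, and the counts are read against the 0.151% of all genes called higher and the 1.27% called lower.

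The group with most called members was that of early zygotic genes, first transcribed in the embryo itself. Of 64 measured, 17 were called lower without replicate 4 and none higher, and the median change was -0.84, or -0.54 with all libraries. In 38 of the 64, replicates 1 to 3 lay below all 4 libraries of the other genotype (9.66% of all genes). By library the median difference from the daf-2;bcl-11-labelled libraries was -0.48, -0.81 and -0.92 in replicates 1 to 3 and 0.43 in replicate 4, so that replicate 4 lay on the opposite side. The same median was 0.20, 0.00, -0.07 and -0.12 in the daf-2;bcl-11-labelled libraries themselves. pes-10, a gene of early embryonic transcription, was at 13.36, 13.02, 12.93 and 12.76 in these and at 11.43, 10.72, 10.12 and 13.66 in the triple mutant. Its log2 fold change was -2.26 without replicate 4 (adjusted p = 0.035, limma) and -1.54 with it (adjusted p = 0.787, limma). The forkhead factor genes fkh-3 and fkh-4 were called lower as well (log2 fold change of fkh-4 -2.35, adjusted p = 0.0372, limma). So were med-1 and med-2, near-identical genes for GATA factors that specify endoderm and mesoderm precursors, at -1.11 and -1.48, between which reads may be split. end-3, a GATA factor gene of the endoderm downstream of them, was at 8.17 to 8.62 against 6.53, 7.08, 6.28 and 8.77 and missed the threshold (log2 fold change -1.78, adjusted p = 0.0601, limma), as did end-1 (-0.62, adjusted p = 0.0844, limma).

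T-box genes, for transcription factors of which several act in early blastomeres, made up a large part of this group. Of 18 tbx genes measured, 7 were called lower without replicate 4, and the median change was -0.80 (-0.46 with all libraries). tbx-33 was at 11.13, 10.46, 10.40 and 10.53 in the daf-2;bcl-11-labelled libraries and at 8.86, 8.54, 7.94 and 11.30 in the triple mutant (log2 fold change -2.18 without replicate 4, adjusted p = 0.0209, limma). tbx-37 and tbx-38, redundant inducers of anterior pharynx mesoderm, were both called lower (tbx-37 at -1.48), and tbx-39 and tbx-40 changed by -1.99 and -2.17. These are pairs of similar genes whose reads may be shared. Of 32 sdz genes, named for their dependence on the maternal factor SKN-1, 3 were called lower, with a median change of -0.54. sdz-12 had the smallest adjusted p of them (log2 fold change -1.66, adjusted p = 0.0111, limma), and its call was lost only without replicate 1 of the daf-2;bcl-11-labelled libraries among the 7 further libraries left out.

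RNAs supplied by the mother were also lower in replicates 1 to 3 and higher in replicate 4, by their median. Of 44 measured, 3 were called lower without replicate 4 and none higher, and 27 had an unadjusted p below 0.05 in the lower direction (9.01% of all genes). The median change was -0.73, or -0.40 with all libraries, and by library it was -0.57, -0.83 and -0.68 in replicates 1 to 3 and 0.47 in replicate 4. pos-1, for a CCCH zinc finger protein that controls translation of maternal RNAs, was at 14.65, 14.06, 13.97 and 13.86 in the daf-2;bcl-11-labelled libraries and at 13.15, 12.39, 12.52 and 14.65 in the triple mutant. Replicates 1 to 3 were all below the other genotype and replicate 4 equalled its highest library. Without replicate 4 pos-1 changed by -1.45 on the log2 scale (adjusted p = 0.0464, limma), and the other called members were zif-1, which marks such zinc finger proteins for degradation in somatic cells (-1.52), and the PUF-family gene puf-11 (-1.37). The oocyte maturation factor gene oma-1 (-1.28), the polarity gene mex-5 (-1.46) and pie-1, which keeps germ cells transcriptionally silent (-1.32), did not pass, with adjusted p-values of 0.0718, 0.071 and 0.0658 (limma).

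Germline genes differed by a similar amount. Of 34 measured, 6 were called lower without replicate 4 and none higher, with a median change of -0.74 (-0.47 with all libraries). pgl-1, for a core protein of P granules, the RNA bodies of germ cells, was at 12.68, 12.17, 12.14 and 11.96 in the daf-2;bcl-11-labelled libraries and at 10.57, 10.51, 10.28 and 12.75 in the triple mutant. Replicate 4 lay above every library of the other genotype, and daf-2 eggs were at 10.16 to 11.65. pgl-1 had a log2 fold change of -1.78 (adjusted p = 0.0169, limma), its relative pgl-3 of -0.98 and the P granule helicase gene glh-2 of -0.94. gld-3, for an RNA-binding protein of germ cell development, changed by -1.62. Among 31 Argonaute and small RNA pathway genes, 4 were called lower, namely wago-1 (-1.38), csr-1 (-1.05), ppw-1 (-1.45) and rde-2 (-0.94), the first 2 being on the germline list too. The median of the Argonaute list was near that of all genes with all libraries (-0.08) and -0.20 without replicate 4. With centring the all-library median was 0.03, and that of all genes 0.11.

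Histone genes, whose RNAs are made in dividing cells, gave 5 called lower of 60 measured, and a median change of -0.63 without replicate 4 (-0.45 with all libraries). By library the median difference was -0.58, -0.42 and -0.85 in replicates 1 to 3 and 0.20 in replicate 4. his-60 was at 13.07 to 13.62 in the daf-2;bcl-11-labelled libraries and at 11.81, 11.85, 11.66 and 13.57 in the triple mutant (log2 fold change -1.48, adjusted p = 0.0436, limma). The called members also included his-61 (-1.23) and the linker histone gene hil-4 (-1.08). Histone genes have near-identical copies, so that reads of one may be counted under another. The libraries were primed by oligo-dT on polyadenylated RNA, and how fully histone RNAs were captured is not known.

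**Figure D4:**
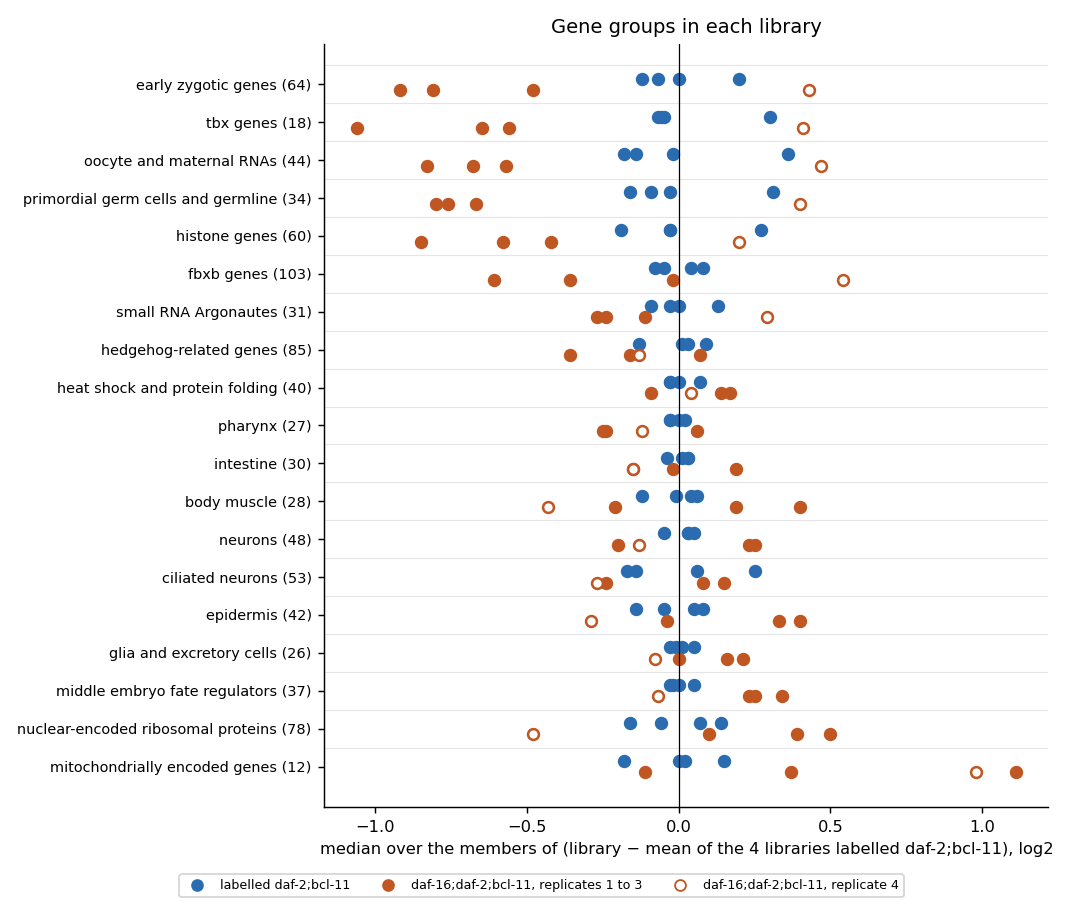
For each gene group (number measured in brackets) the median over its members of the difference between a library and the mean of the 4 daf-2;bcl-11-labelled libraries, on the log2 scale, with those libraries in blue, replicates 1 to 3 of the triple mutant as filled orange circles and its replicate 4 as an open circle. For early zygotic genes, tbx genes, maternal RNAs, germline and histone genes the filled circles lie left of all others and replicate 4 lies right of 0, at 0.43 for early zygotic genes.

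Few tissue markers were called, while their medians differed between libraries in both directions. None of 28 body muscle, 27 pharynx, 30 intestine, 48 neuron and 53 ciliated neuron markers was called in either fit, with medians between -0.07 and 0.01 with all libraries and between -0.04 and 0.14 without replicate 4. Centring turned the all-library medians of body muscle and pharynx to 0.08 and 0.04, but that of all genes to 0.11. The 2 lists therefore moved together with all genes. By library the median of body muscle was -0.21, 0.19 and 0.40 in replicates 1 to 3 and -0.43 in replicate 4. An unadjusted p below 0.05 was reached by 8 of the 27 pharynx markers in the lower direction with all libraries (3.54% of all genes), and without replicate 4 by 6 of the 28 body muscle markers in the higher direction (7.18%). The muscle myosin gene unc-54 was at 13.22, 12.89, 13.17 and 13.16 in the daf-2;bcl-11-labelled libraries and at 12.73, 13.46, 13.75 and 12.46 in the triple mutant, with replicates 1 and 4 below and 2 and 3 above. myo-3, another muscle myosin gene, was ordered alike, at 13.62 to 14.08 against 13.42, 14.16, 14.27 and 13.27. Identity factors moved little. The pharynx factor gene pha-4 was at 13.66 to 13.93 against 13.96, 14.30, 14.17 and 13.87, the intestine factor gene elt-2 at 11.44 to 11.70 against 11.78, 12.08, 11.88 and 11.45, and the neuronal gene unc-119 at 11.85 to 11.96 against 12.09, 12.09, 12.03 and 11.75. In these 3 genes replicates 1 to 3 lay above the other genotype by small amounts and replicate 4 did not. All defining tissue factors named here were expressed in every library.

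In the epidermis, 1 of 42 markers was called and 13 had an unadjusted p below 0.05 in the higher direction (7.18% of all genes), with a median change of 0.21 without replicate 4. It was dlg-1, for a scaffold protein of epithelial junctions, at 15.25 to 15.56 against 15.73, 16.23, 16.26 and 15.17 (log2 fold change 0.61, adjusted p = 0.0471, limma). With centring and quantile normalization that median was 0.35 and 0.17, where the median of all genes was 0.13 and 0.01. Of 26 glial and excretory cell markers, 2 were called lower, egg-6, for a leucine-rich repeat protein of the apical matrix (-0.92), and the potassium-chloride cotransporter gene kcc-3 (-0.74), although the median of this list was 0.17. Regulators of cell fate in middle embryos had a median of 0.28 (0.18 with all libraries). With all libraries 34 of the 37 were above 0, as were 12787 of all 25122 genes. 1 of them, sox-2, was called higher, at 11.25 to 11.44 against 11.94, 11.97, 12.33 and 11.54 (log2 fold change 0.75, adjusted p = 0.0464, limma), and 1 lower, the zinc finger gene ztf-28 (-1.64). On the pharynx list abu-11 was at 7.39 to 7.89 against 4.70, 6.36, 6.99 and 7.41 and phat-5 at 12.66 to 13.35 against 11.30, 11.27, 12.68 and 13.06. Replicates 1 to 3 were low for abu-11 and replicates 1 and 2 for phat-5, and neither gene was called.

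Hedgehog-related genes, many of them secreted by the epidermis, had a median of -0.20 over 85 measured (-0.16 with all libraries). With all libraries 60 of the 85 were below 0, as were 12335 of all 25122 genes. The called members were ptr-2, a Patched-related gene (-0.93), and grl-1 (-1.08). Within them the 10 wrt genes had a median of -0.57, wrt-8 for example being at 6.83 to 7.37 against 6.28, 4.78, 6.17 and 6.72 (log2 fold change -1.28 without replicate 4, adjusted p = 0.105, limma). Of 310 F-box genes 7 were called lower, and the fbxb genes among them had a median of -0.35 over 103 measured, with all libraries -0.08. fbxb-5 was at 9.42 to 9.77 against 7.83, 7.81, 6.62 and 8.96 (log2 fold change -2.15 without replicate 4, adjusted p = 0.0112, limma). Centring on library medians turned the all-library median of the fbxb genes to 0.03 and that of all genes to 0.11. 4 of 215 C-type lectin-like genes were called lower, clec-118 (-1.59), clec-230 (-1.96), clec-87 (-1.90) and clec-229 (-1.38), a list whose median was -0.04. Of 1060 chemoreceptor-type genes 3 were called lower (srh-105, srj-53 and srt-42), and the median was -0.01. Markers of the parents' tissues, 54 sperm genes and 18 genes of the adult body, had no called member and medians of -0.07 and 0.06 without replicate 4.

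Of the heat-inducible chaperone genes, 3 HSP70 genes were called lower without replicate 4. The small heat shock protein genes hsp-16.1, hsp-16.2 and hsp-16.41 were lower too, but missed the threshold. All eggs had been at 27°C, which can induce these genes in the worm. hsp-70, for a heat-inducible HSP70, was at 14.29, 14.02, 13.96 and 13.62 in the daf-2;bcl-11-labelled libraries and at 10.52, 11.19, 11.16 and 15.02 in the triple mutant. Replicates 1 to 3 lay below and replicate 4 above the other genotype, and daf-2 eggs were at 10.92 to 12.17. The log2 fold change was -3.02 without replicate 4 (standard error 0.28, adjusted p = 0.00035, limma) and missed the threshold with it (adjusted p = 0.787, limma). The gene uggt-2 overlaps hsp-70 on the opposite strand. The paired HSP70 genes F44E5.4 and F44E5.5, which are nearly identical and may share reads, changed by -1.81 and -1.23 (adjusted p = 0.0111 and 0.0306, limma). The small heat shock protein gene hsp-16.1 was at 15.91 to 16.56 against 14.59, 14.09, 14.23 and 16.98. Its change of -1.89 missed the threshold (adjusted p = 0.071, limma), as did those of hsp-16.2 (-1.17, adjusted p = 0.122, limma) and hsp-16.41 (adjusted p = 0.139, limma). These 3 HSP70 genes were the only ones called lower on the heat shock and folding list of 40, and 1 gene was called higher, the chaperonin subunit gene cct-8 (0.68, adjusted p = 0.0335, limma). The median of the list was 0.07.

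**Figure D5:**
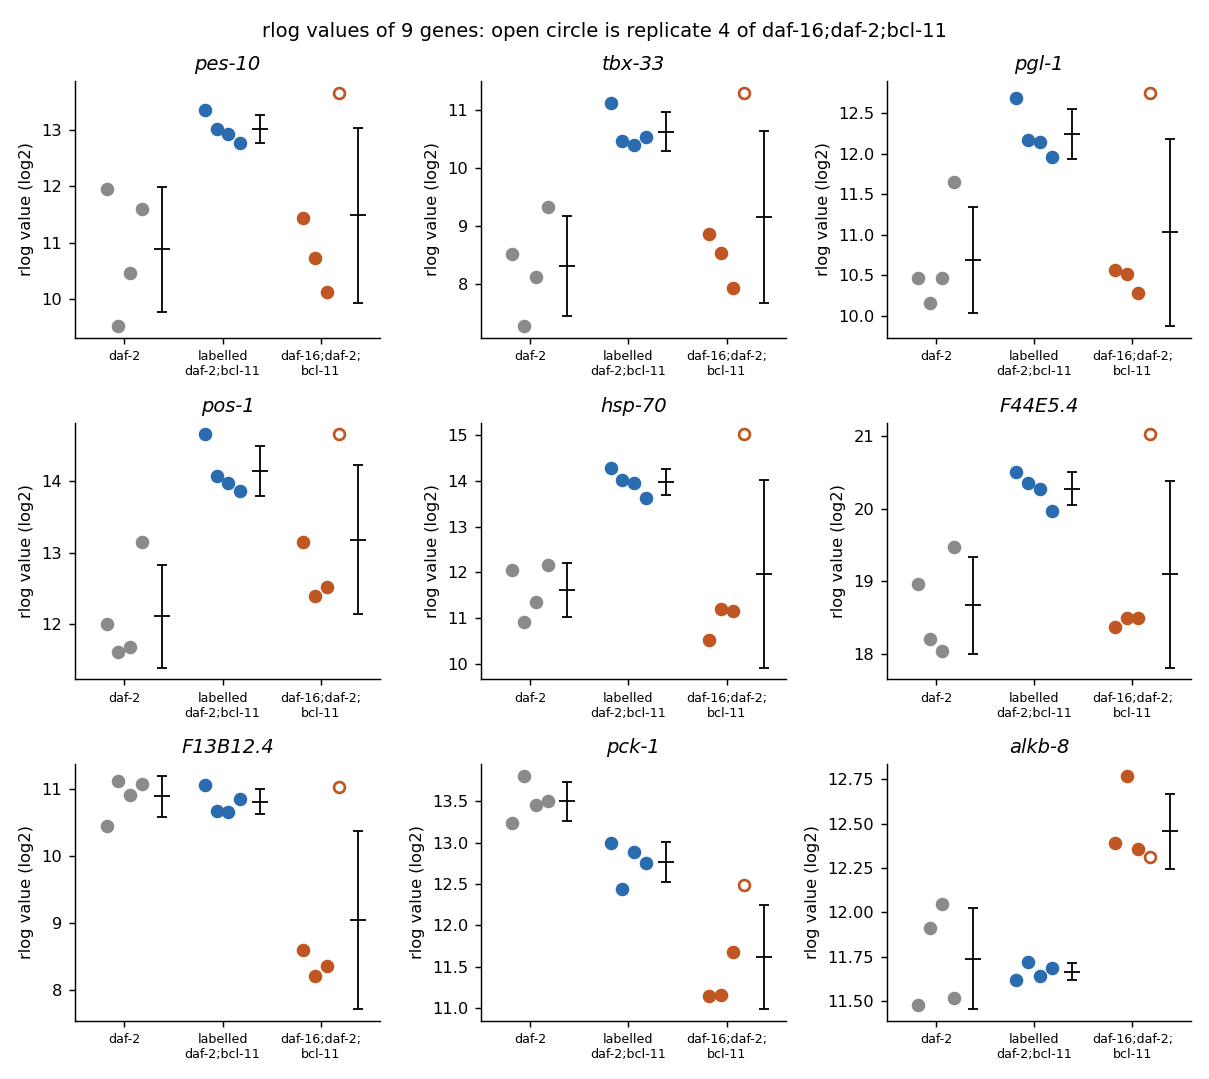
rlog values (log2 scale) of 9 genes, with groups, colours, means and SDs as in the plot of klp-4 and saeg-2. In pes-10, tbx-33, pgl-1, pos-1, hsp-70 and F44E5.4 replicate 4 of the triple mutant (open circle) lies at or above the highest daf-2;bcl-11-labelled library, in F13B12.4 and pck-1 within their range, and in alkb-8 (12.31) with the other triple mutant libraries.

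Of 78 genes for cytosolic ribosomal proteins none was called in either fit. The median was 0.31 without replicate 4, where 45 of the 78 had an unadjusted p below 0.05 in the higher direction (7.18% of all genes), and 0.10 with all libraries. By library it was 0.10, 0.50 and 0.39 in replicates 1 to 3 and -0.48 in replicate 4. rpl-1 was at 13.67 to 13.91 in the daf-2;bcl-11-labelled libraries and at 14.06, 14.45, 14.41 and 13.26 in the triple mutant, with replicate 4 below and the others above. The 12 measured mRNAs encoded in the mitochondrial genome differed from these lists, since replicate 4 did not lie opposite the others. Their median difference was 1.11, -0.11 and 0.37 in replicates 1 to 3 and 0.98 in replicate 4. The median change was 0.60 with all libraries and 0.44 without replicate 4, all 12 were above 0 with all libraries, and none was called. ND1, for a subunit of respiratory complex I, was at 13.49 to 13.64 against 14.32, 13.71, 13.78 and 14.18 (log2 fold change 0.44, adjusted p = 0.787, limma).

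The 38 genes called higher without replicate 4 included 3 of 151 long intergenic noncoding RNAs, linc-17 (0.95), linc-12 (0.72) and linc-11 (0.68), and 3 of 21 ribosomal RNA genes. rrn-3.1, a gene of the large ribosomal RNA, was at 21.63, 20.95, 21.29 and 21.10 in the daf-2;bcl-11-labelled libraries, at 22.30, 22.33 and 22.49 in replicates 1 to 3 and at 20.41 in replicate 4. It was high in 3 triple mutant libraries and lowest in replicate 4, and in daf-2 eggs it ran from 21.67 to 23.12. Its log2 fold change was 1.13 without replicate 4 (adjusted p = 0.0473, limma). How fully ribosomal RNA was captured by the oligo-dT priming of these libraries is not known. T03F1.6 was at 10.39 to 10.93 against 11.49, 12.15, 11.87 and 9.69 (log2 fold change 1.12), and arx-6, for a subunit of the actin-nucleating Arp2/3 complex, at 9.83 to 10.10 against 10.99, 10.58, 10.86 and 9.92 (0.83). In both the replicates 1 to 3 were above the other genotype and replicate 4 was not. Of 24 genes for SWI/SNF and NuRD subunits, the chromatin remodeling complexes with which BCL11 proteins act in mammals, none was called. Their median was 0.16 with all libraries and 0.18 without replicate 4, but 0.05 and 0.07 after quantile normalization. With all libraries 23 of the 24 were above 0, and without replicate 4 it was 19. Of all 25122 genes, 12787 were above 0 with all libraries and 12503 without replicate 4.

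The lists for early zygotic genes, maternal RNAs, germline and histone genes shared the highest library of each genotype. Replicate 1 of the daf-2;bcl-11-labelled libraries was the highest of its genotype on all 4 lists (0.20, 0.36, 0.31 and 0.27 in that order), and replicate 4 of the triple mutant the highest of its own (0.43, 0.47, 0.40 and 0.20). In daf-2 eggs the median of the maternal list was -1.31, -1.42, -1.22 and -0.36, so that these genes also varied between replicates of that genotype. The part of embryo stage in the calls was not tested.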

How the data were processed

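RNA-sequencing libraries from eggs of 3 genotypes, 4 of each, were analysed. Per the labels and methods, the authors prepared libraries by Smart-seq2, converted base calls with bcl2fastq 2.20, estimated abundance with kallisto (version given as 048.0) on WBcel235 and deposited rlog values, which are normalized counts on the log2 scale. How transcripts were summed and which filter was used are not given in the sources used here. No counts or depth were used, so no intervals for counting error are given.

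The deposited log2 values were used without further normalization, with columns matched to libraries by genotype and replicate number. Of 25122 identifiers, 23471 had a symbol, and coordinates came from the Ensembl 115 annotation. Genes were tested with limma 3.58.1 in R 4.3.3 (eBayes with a trend, 12 libraries, or 11 without replicate 4, no block). Alternatives were a model with only the genotypes compared, no trend, a minimum mean value of log2(10), centring on library medians, quantile normalization, the replicate block, other fold thresholds and each library left out. On simulated data with 100 genes each changed by 1.5 and 3 on the log2 scale, 88 and 98 were recovered with all libraries and 84 and 96 without replicate 4, beside 6 and 4 unchanged genes called. The simulated noise was independent between genes and libraries, and only genes with a mean above log2(10) were changed. No simulated library differed in many genes at once, as replicate 4 did. These rates therefore check the code and do not carry over to the calls here.

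The labels give each library a batch whose number equals its replicate number. It paired the libraries only in the replicate block, an alternative setting. The main fits and the permutation tests did not use it. Deviations from the group means correlated at -0.298 to 0.117 for same-numbered and -0.339 to 0.416 for other pairs of libraries. 933 genes shared identical values with another gene and are not independent.

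Named genes were the targeted genes, all genes called with 8 libraries, 6 genes the study names, the 15 largest changes in each direction without replicate 4, and for each list described up to 6 called members, or 3 where none was called, from which the text gives a selection; others are said to be chosen after their values were seen, or are known stage, stress or identity genes added as examples with their values known. A list was described when at least 3 members were called, its median was over 0.3 from that of all genes, or it named a tissue. The members and lists were chosen with earlier results of these data known.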

Additional observations from a re-analysis of the deposited data

Results flagged for a closer look

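Among 226 sets of 4 libraries (1 gene or list in 1 genotype), 27 held 1 library distant from its companions by Dixon's test at the 95% level, where about 1 in 20 groups passes by chance. 19 of the 27 were the triple mutant's replicate 4, but most of these genes were named for their change without that library, so this share is no measure of how far replicate 4 departs. The values are the gap to the nearest library divided by the range of the 4.

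In the triple mutant, replicate 4 was above the other 3 libraries for stress genes. The gap was 0.852 for hsp-70, 0.953 for F44E5.4, 0.888 for F44E5.5, 0.879 for hsp-16.2 and 0.891 for hsp-16.41. The same held for germline and maternal genes, with 0.882 for pgl-1, 0.847 for wago-1 and 0.911 for oma-1, and 0.894 for the median of the germline list. Further genes with replicate 4 on top were his-60 (0.902), his-61 (0.863), egg-6 (0.927), M05D6.3 (0.871), F13B12.4 (0.863), imp-1 (0.864), DH11.2 (0.932) and the noncoding gene srpr-1.2 (0.900), with a level of 8.51 where the other 3 averaged 4.67. Replicate 4 lay below the others for rrn-3.1 (0.911) and Y69H2.10 (0.861).

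In the daf-2;bcl-11-labelled libraries, replicate 1 was above the other 3 for fkh-3 (0.848), fkh-4 (0.870), clec-87 (0.844), oma-1 (0.932), T07C4.3 (0.933) and the median of the tbx genes (0.922), and below them for dlg-1 (0.872). Replicate 2 was below the others for unc-54 (0.842).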

How the results depend on the processing

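The count of 3 genes with all libraries stayed at 3 under the other settings, with the replicate block among them, and ranged from 2 to 357 when 1 library was left out. The count of 357 without replicate 4 became 465 with centring, 736 in a model with only the genotypes compared, 153 without a trend, 588 with the filter on low values, 149 after quantile normalization and 221 with an absolute log2 fold change above 1. With the replicate block it was 374, of which 268 were among the 357, and pairing by replicate number changed no call of the 3 genes. It ranged from 17 to 496 when 1 more library was left out. Of the 357 genes, 295 were also called after centring and 147 after quantile normalization. Centring shifted the median of all genes by 0.11 with all libraries, where genes with an unadjusted p below 0.05 became 3112 higher and 410 lower. The cause of these differences was not tested. None of the results recomputed changed direction while called; klc-1, akt-1, med-1, med-2, ptr-2, grl-1 and ztf-28 were not among the genes recomputed. The early zygotic list held 11 called members after quantile normalization and 18 with centring in place of 17, and from 0 to 26 over all settings. After quantile normalization the germline list held 1 called member in place of 6, the maternal list 0 in place of 3 and the histone list 0 in place of 5. The median of the early zygotic list stayed between -0.90 and -0.70 without replicate 4. rlog values carry no depth, so the precision of weakly expressed genes is unknown, and reads shared between near-identical genes could not be separated.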
